A study of Mus musculus with 12 samples.

Results

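The cytosolic chaperonin CCT (also called TRiC) is built from the products of Tcp1, Cct2, Cct3, Cct4, Cct5, Cct6a, Cct7 and Cct8. These 8 genes, out of 20661 in the count files, were read by symbol in every library. RNA and ribosome footprints were measured in mouse embryonic fibroblasts (MEFs) of 3 groups, with 2 replicates per group and assay, which gave 12 libraries. WT-shSCR MEFs were wild type and carried a scrambled hairpin. WT-shARF MEFs were wild type and carried a hairpin against ARF. Arf-/- shSCR MEFs lacked ARF and carried the scrambled hairpin. All MEFs were at passage 4 and had been transduced with a lentiviral hairpin and selected, so that no group was left untransduced. The labels give C57BL/6J for the WT cells, while the study's methods give B6129SF2/J, and they give B6.129X1-Cdkn2atm1Cjs/KaiJ for the knockout cells, in which a neo cassette stands in place of the first exon of the Arf transcript of Cdkn2a. Strain and genotype therefore cannot be told apart where the knockout is compared. Neither the labels nor the methods state that the replicates came from separate cultures, so the spread between them may be technical.

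CCT is a double ring in which each ring holds one copy of every subunit in a fixed order, so the complex needs its subunits in equal amounts. It folds newly made actin and tubulin, along with other proteins that cannot fold alone, and releases them by ATP hydrolysis. Prefoldin hands unfolded actin and tubulin to the ring, and phosducin-like proteins act on it as cofactors.

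Total counts ran from 1578627 to 3989908 in the RNAseq libraries and from 2544319 to 5157572 in the ribosome profiling libraries. Cdkn2a, the gene that encodes ARF and INK4A, was at 44.8 and 41.9 CPM (counts scaled to library size with TMM factors) in the RNAseq libraries of WT-shSCR, at 27.7 and 32.2 CPM in Arf-/- shSCR, and at 644 and 668 CPM in those labelled WT-shARF. The RNA counts of the targeted gene thus went against that label, and every direction below is given for libraries by their label. The study shows ARF knockdown in its MEFs by immunoblot, and states that the hairpin leaves INK4A expression unaffected. The counts hold no protein, and the reason for this difference was not tested. Counts per gene do not separate ARF from INK4A. Fibroblast markers summed to 13252 to 17395 CPM over the 6 RNAseq libraries, with none of the 9 markers at 0. Macrophage markers (6 genes) summed to 514 to 540 CPM in the footprints of WT-shSCR, 164 to 195 CPM in those labelled WT-shARF and 36.2 to 48.3 CPM in Arf-/- shSCR. Markers of dividing cells (6 genes) summed to 1096 to 1248, 1657 to 1821 and 2023 to 2047 CPM in the same order. In bulk samples, fewer cells of a type and less RNA per cell cannot be told apart.

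The subunit genes lie on separate chromosomes. In GENCODE M21 on GRCm38 (mm10), Tcp1 (ENSMUSG00000068039.13) spans chr17:12915701-12925067, Cct2 (ENSMUSG00000034024.8) chr10:117051001-117063814, Cct3 (ENSMUSG00000001416.13) chr3:88297116-88321767 and Cct4 (ENSMUSG00000007739.10) chr11:22990519-23003780. Cct5 (ENSMUSG00000022234.15) spans chr15:31590800-31601804, Cct6a (ENSMUSG00000029447.11) chr5:129786998-129846371, Cct7 (ENSMUSG00000030007.8) chr6:85451514-85468475 and Cct8 (ENSMUSG00000025613.13) chr16:87483326-87495873. Their coding sequences are of nearly the same length, from 1596 nucleotides in Cct6a to 1668 in Tcp1. Cct6a is annotated there as a processed transcript without a coding sequence, so its length was taken from the longest open reading frame of its transcripts. Psph (other strand) and Snora15 (same strand) overlap Cct6a, and Acat3 (other strand) overlaps Tcp1.

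The study asks how ARF bears on the translation of mRNAs that start with a C and a run of pyrimidines (5′-TOP mRNAs), so the annotated starts of the members are shown. RefSeq (GRCm38.p6) gives starts for 7 of the 8 genes. The first 15 bases are printed in sense, with the first base in capitals, for the start nearest to the GENCODE gene's 5′ end where RefSeq holds 2, as for Cct2 and Cct5.
Tcp1: Cggcgttttcagttt
Cct2: Acgcaggaggcggaa
Cct3: Tgtcattcctgagga
Cct5: Ctgttgaaaagtaag
Cct6a: Gggcgggccgggtgc
Cct7: Gcggggttgcgcggg
Cct8: Ttcccagcaggcagt
None of the 7 began with a C and 4 pyrimidines, against 3.01% of 27025 genes, and against 14 of 64 ribosomal protein genes, which are the classic 5′-TOP class. When the same letters were also sought within a few bases of the start, 1 of 7 members (Tcp1) matched. That search matched 22.5% of genes and 31 of 64 ribosomal protein genes. RefSeq and GENCODE starts differ by many bases in several members, and no match says only that these letters are not at these positions.

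Upstream sequence is shown for the 4 starts at which a searched motif lay within 80 bases, since the members moved together in footprints. The window of Cct2 belongs to its other start. The motif letters are in capitals.
Cct3, chr3:88297055-88297134 (plus strand): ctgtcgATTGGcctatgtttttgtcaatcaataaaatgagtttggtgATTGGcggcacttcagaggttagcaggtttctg
Cct6a, chr5:129787276-129787355 (plus strand): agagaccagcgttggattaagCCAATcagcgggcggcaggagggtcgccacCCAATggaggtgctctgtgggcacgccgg
Cct5, chr15:31601847-31601926 (minus strand): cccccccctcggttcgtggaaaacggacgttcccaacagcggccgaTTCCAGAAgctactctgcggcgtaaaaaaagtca
Cct2, chr10:117063376-117063455 (minus strand): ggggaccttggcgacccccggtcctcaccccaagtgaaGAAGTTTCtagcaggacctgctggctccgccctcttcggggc
In Cct3 and Cct6a the capitals are CCAAT, the NF-Y box, read on the minus and the plus strand of the gene. Over 250 bases upstream and both strands, CCAAT was found in 4 of 7 members (Tcp1, Cct3, Cct6a and Cct7), against 37.5% of all 27025 genes. The other 2 windows show heat shock element spacings, TTCNNGAA in Cct5 (8.11% of genes) and GAANNTTC in Cct2 (7.73% of genes). CACGTG, the E-box that MYC binds, was found in 0 of 7 members and in 6.86% of genes. A match is a description of the letters and not a site in use.

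All 8 subunits were well covered, with 504 to 3767 counts per RNAseq library and 1317 to 4934 counts per ribosome profiling library. Cct6b, the paralog known from testis, had 0 to 4 counts per library and was not tested. The plot of levels by library shows both assays per kb of coding sequence.

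**Figure D1:**
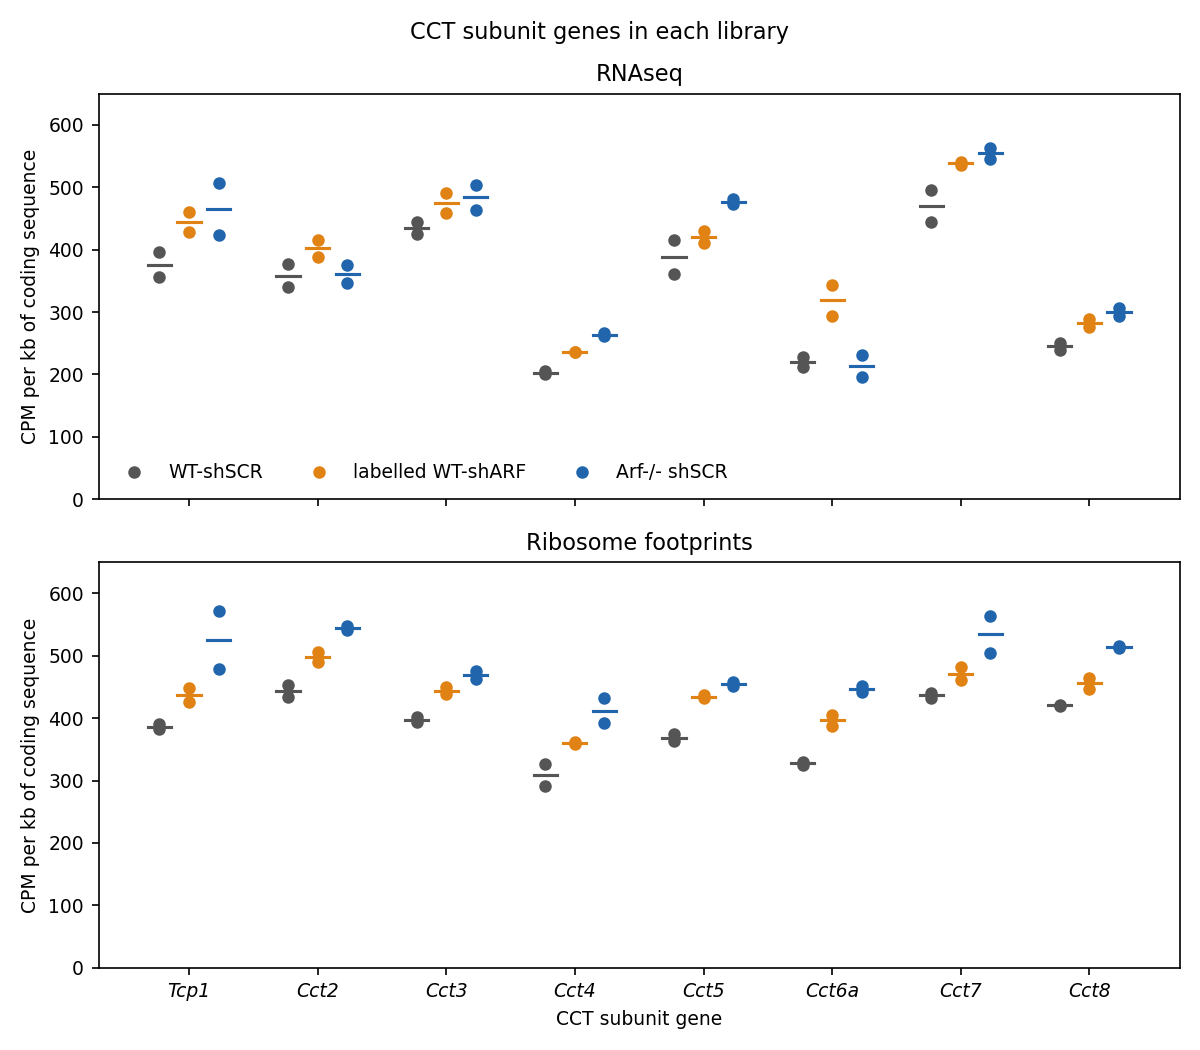
Levels of the 8 CCT subunit genes in CPM per kb of coding sequence (y axis) in the RNAseq (top) and ribosome profiling (bottom) libraries. Points are libraries, bars are means of 2 replicates, and colours are the groups. In footprints both Arf-/- shSCR libraries lie above both WT-shSCR libraries for all 8 genes.

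The footprints of every subunit were higher in Arf-/- shSCR than in WT-shSCR MEFs. All 8 members rose by the edgeR quasi-likelihood test (Benjamini-Hochberg adjusted), against a background of 9.57% of 10737 genes called higher. The rises were small and alike, from a log2 fold change of 0.25 in Cct3 to 0.46 in Cct6a, with a median of 0.31 (1.24-fold) against 0.00 over all genes. Macrophage markers fell and dividing cell markers rose in the same comparison (6 of 6 called in footprints for each list, against 8.95% of all genes called lower and 9.57% higher). Of 9 fibroblast markers, 4 were called higher and 2 lower, against the same shares. Of the epithelial or mesothelial markers, 4 of 5 tested were called higher (Krt8, Krt18, Msln and Upk3b). Their sum over 7 genes was 91.4 to 112 CPM in WT-shSCR footprints, where Epcam and Upk3b were at 0. It was 72.9 to 93.2 CPM in those labelled WT-shARF and 170 to 171 CPM in Arf-/- shSCR. The epithelial genes Epcam and Cdh1 stayed near 0 in Arf-/- shSCR footprints, at means of 0.193 and 0.0962 CPM. The part of all these marker lists in the rise of the subunits was not tested.

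Cct6a, the zeta subunit, was at 527 and 519 CPM of footprints in WT-shSCR and at 721 and 704 CPM in Arf-/- shSCR. The replicates of each group lay close together and the groups were far apart, a log2 change of 0.46 (SE 0.083, edgeR adjusted p = 0.000116). Tcp1, the alpha subunit and the founding member of the family, was at 637 and 652 CPM in WT-shSCR and at 800 and 954 CPM in Arf-/- shSCR. Its knockout replicates were the most spread of the 8 genes, and both lay above the control, by a log2 change of 0.46 (SE 0.086, edgeR adjusted p = 0.000169).

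Cct4, the delta subunit, was at 470 and 529 CPM of footprints in WT-shSCR and at 634 and 698 CPM in Arf-/- shSCR, a log2 change of 0.43 (SE 0.089, edgeR adjusted p = 0.000592). Cct8, the theta subunit, was at 692 and 690 CPM against 848 and 842 CPM, and Cct2, the beta subunit, at 728 and 696 CPM against 870 and 879 CPM. In each of these genes the lower knockout library exceeded the higher control library. The remaining members, Cct5 (epsilon), Cct7 (eta) and Cct3 (gamma), had log2 fold changes of 0.32, 0.30 and 0.25, with Cct3 nearest to the threshold (edgeR adjusted p = 0.0255).

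For all 8 members both Arf-/- shSCR footprint libraries lay above both WT-shSCR libraries, which held for 27.5% of the genes tested. Without either WT-shSCR footprint library, 0 members and 0 genes of the whole table were called by edgeR, with all 8 members at an unadjusted p under 0.05. In a fit of all 3 groups, the log2 fold changes of the members ran from 0.23 to 0.46 without WT-shSCR replicate 1, where Cct3 did not pass. They ran from 0.26 to 0.51 without replicate 2. With 1 Arf-/- shSCR library left out of this fit they ran from 0.21 in Cct7 to 0.58 in Tcp1. Cct3 and Cct7 did not pass without replicate 2 of Arf-/- shSCR. The log2 fold changes stayed positive in all 16 alternative fits, the lowest at 0.21 for Cct7.

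RNA of the subunits was less clear in the same comparison. By edgeR 0 of 8 members were called in either direction, against 3.94% of 10659 genes called higher. Unadjusted p fell below 0.05 for 1 member, Cct4, and DESeq2 called 0. Cct4 RNA was at 331 and 325 CPM in WT-shSCR and at 430 and 423 CPM in Arf-/- shSCR, a log2 fold change of 0.38 (95% interval 0.08 to 0.67, edgeR adjusted p = 0.122). In 6 of 8 members (Tcp1, Cct3, Cct4, Cct5, Cct7 and Cct8) both knockout RNAseq libraries lay above both control libraries, a pattern that 25.3% of the genes tested showed.

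Cct2 and Cct6a were the exceptions in RNA. Cct2 was at 546 and 605 CPM in WT-shSCR and at 601 and 555 CPM in Arf-/- shSCR, and the groups overlapped fully. Cct6a was at 338 and 364 CPM against 368 and 312 CPM, with a log2 fold change of -0.05 (95% interval -0.36 to 0.27). The RNA interval of Cct6a ended below its footprint change of 0.46, while the intervals of the other 7 members contained theirs. The median log2 fold change was 0.26 in RNA and 0.31 in footprints.

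**Figure D2:**
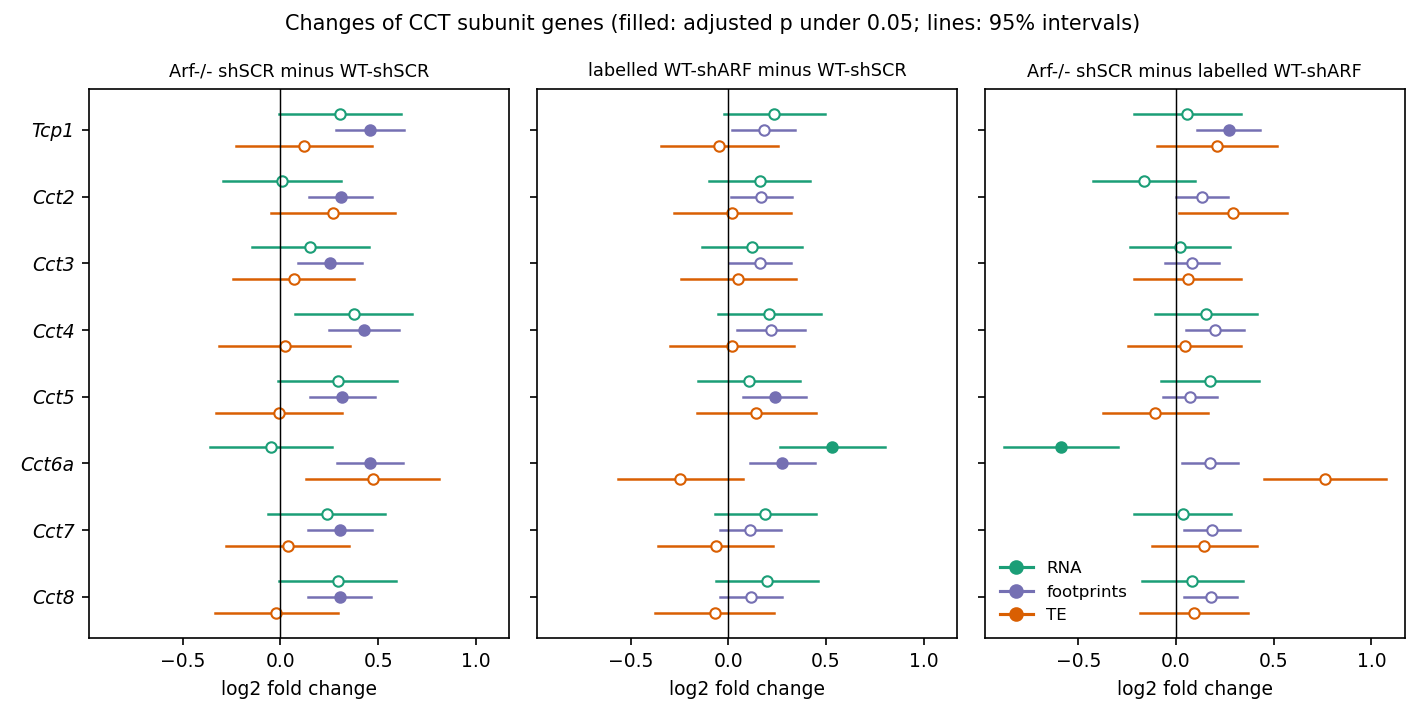
Log2 fold changes (x axis) of the 8 subunit genes in RNA, footprints and TE, in 3 comparisons (panels), with 95% intervals from edgeR. Filled points have an adjusted p under 0.05. All 8 footprint changes are filled in the first panel, and Cct6a holds the largest RNA and TE departures in the third panel.

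Translation efficiency (TE) is the footprint level of a gene divided by its RNA level, and its change was tested as the interaction of assay and condition. For Arf-/- shSCR against WT-shSCR, 0 of 8 members were called by edgeR, against 0.0884% of 11314 genes called higher. At an unadjusted p under 0.05 there was 1 member, Cct6a, which DESeq2 called (adjusted p = 0.0279). Cct6a had a TE change of 0.47 on the log2 scale (95% interval 0.13 to 0.81, edgeR adjusted p = 0.451). The next was Cct2 at 0.27 (95% interval -0.05 to 0.59), and the other 6 members lay between -0.02 and 0.12. Cct6a and Cct2 were also the pair with the lowest RNA changes, and RNA is the divisor of TE.

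In the libraries labelled WT-shARF the subunits also lay above WT-shSCR, with a median log2 fold change of 0.18 in footprints. In footprints both labelled libraries lay above both WT-shSCR libraries for all 8 members, against 25.4% of genes, and 2 members passed the edgeR test, against 5.63% of 10307 genes called higher. Cct6a was at 619 and 647 CPM, a log2 change of 0.28 (SE 0.082, edgeR adjusted p = 0.0232). Cct5, the epsilon subunit, was at 607 and 588 CPM in WT-shSCR and at 700 and 709 CPM in the labelled libraries, a log2 change of 0.24 (SE 0.079, edgeR adjusted p = 0.0463). The other 6 members had log2 fold changes of 0.11 to 0.22 and did not pass. In fits of these groups alone, both calls were lost when either footprint library labelled WT-shARF was left out. That of Cct5 was also lost without WT-shSCR replicate 2. In fits of all 3 groups that left out 1 library, Cct5 did not pass. Cct6a passed there only without footprint replicate 1 labelled WT-shARF. Log2 fold changes in those fits ran from 0.22 in Cct5 to 0.33 in Cct6a. This comparison shares its WT-shSCR libraries with the one above, so the directions are not independent.

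Cct6a was also the member that stood apart in the RNA of these libraries. It was at 338 and 364 CPM in WT-shSCR and at 469 and 549 CPM in those labelled WT-shARF, a log2 change of 0.53 (SE 0.13, edgeR adjusted p = 0.0103), and it was the 1 member called, against 3.11% of 10503 genes called higher. The other 7 had log2 fold changes of 0.11 to 0.24. In 7 of 8 members both labelled RNAseq libraries lay above both WT-shSCR libraries, against 24.9% of genes, and Cct5 overlapped. Without replicate 2 of the RNAseq libraries labelled WT-shARF the log2 fold change of Cct6a was 0.42 and it was not called (edgeR adjusted p = 0.286), nor was it called in any fit of 3 groups that left out 1 library. For TE 0 of 8 members were called by edgeR, by DESeq2 or at an unadjusted p under 0.05, against 0.0354% of 11289 genes called higher.

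The direct comparison of Arf-/- shSCR with the libraries labelled WT-shARF separated RNA from footprints in Cct6a. Its RNA was lower in the knockout, at 368 and 312 CPM against 469 and 549 CPM, a log2 change of -0.59 (SE 0.14, edgeR adjusted p = 0.0354). It was the 1 member called lower, against 1.19% of 10632 genes, and 0 members were called higher by edgeR, by DESeq2 or at an unadjusted p under 0.05, against 1.38%. Its footprints were the other way, at 721 and 704 CPM against 619 and 647 CPM, a log2 fold change of 0.17 that did not pass (edgeR adjusted p = 0.135).

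The TE of Cct6a accordingly differed by a log2 fold change of 0.76 (95% interval 0.45 to 1.07) between these groups, which missed the threshold by edgeR (adjusted p = 0.0707) and passed it by DESeq2 (adjusted p = 0.00151). By edgeR 0 of 8 members were called for TE, against 0.0172% of 11632 genes called higher, with 2 members, Cct2 and Cct6a, at an unadjusted p under 0.05. The RNA call of Cct6a was lost without either RNAseq library labelled WT-shARF and without replicate 2 of Arf-/- shSCR, with log2 fold changes of -0.70, -0.47 and -0.48. TE takes the RNA level as divisor, so the RNA and TE values of Cct6a are not independent.

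Tcp1 was the 1 member whose footprints differed between the same groups, against 3.93% of 10941 genes called higher. It was at 711 and 746 CPM in those labelled WT-shARF and at 800 and 954 CPM in Arf-/- shSCR, a log2 change of 0.27 (SE 0.077, edgeR adjusted p = 0.036). The call was lost with DESeq2 (adjusted p = 0.0513) and without replicate 2 of Arf-/- shSCR, at a log2 fold change of 0.13. It was lost as well without either footprint library labelled WT-shARF, when 0 and 1 genes were called in the whole table. All 8 members had both knockout footprint libraries above both labelled libraries, against 25.2% of genes. Footprints therefore stood in the order WT-shSCR, labelled WT-shARF, Arf-/- shSCR in all 8 genes, with no overlap between neighbouring groups. The share of all genes in this full order was not worked out, and the pairwise comparisons share libraries.

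TE levels divided the subunits into those with more and those with fewer footprints per RNA. Per the study's methods, footprints were cut with RNase T1 while RNA was fragmented by heat in a carbonate buffer. The part of this difference in contrasts between genes was not tested. In WT-shSCR MEFs, Cct8 had the highest ratio of mean footprint CPM to mean RNA CPM, 1.72 (1.67 to 1.76 over the 4 pairings of replicates), followed by Cct4 at 1.52, Cct6a at 1.49 and Cct2 at 1.24. Tcp1 was at 1.03, Cct5 at 0.95, Cct7 at 0.93 and Cct3 at 0.91. The pairings of Cct8 lay above those of every other member, those of Cct4 and Cct6a overlapped, and those of Tcp1, Cct5 and Cct7 overlapped, as did those of Cct3 with Cct5 and Cct7. The median over 8682 genes was 0.98, and the members stood between the 44.8th and the 85.0th percentile of genes.

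The same order held in part in the other groups. Cct8 was at 1.61 in the libraries labelled WT-shARF and at 1.71 in Arf-/- shSCR, Cct4 at 1.52 and 1.56, and Cct3 at 0.94 and 0.97. Cct6a moved most, from 1.24 in the libraries labelled WT-shARF to 2.09 in Arf-/- shSCR, where it was the highest of the 8 and at the 91.6th percentile of 9361 genes. Cct2 was at 1.24 in both WT groups and at 1.51 in Arf-/- shSCR. Its pairings ran from 1.45 to 1.58 in Arf-/- shSCR and from 1.15 to 1.33 in WT-shSCR. The pairings reuse the same libraries, and the TE change of Cct2 between these groups was not called, as given above.

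**Figure D3:**
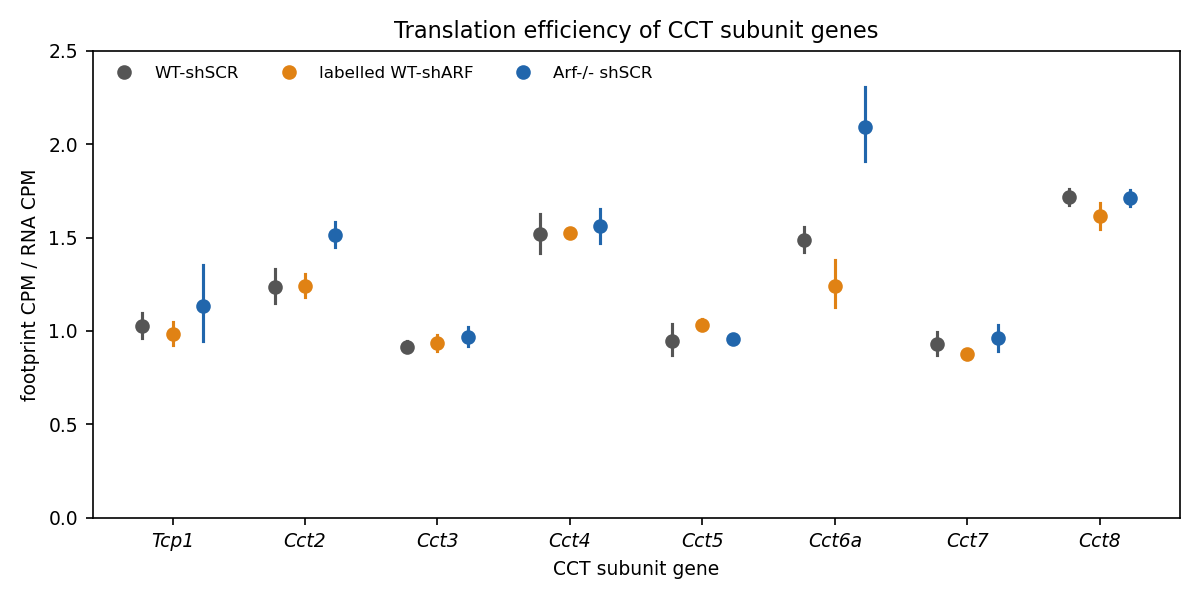
TE of each subunit gene as the ratio of mean footprint CPM to mean RNA CPM (y axis), with lines for the range over the 4 pairings of replicates. To 2 decimals, Cct2, Cct4, Cct6a and Cct8 sit at or above 1.24 in every group and Cct3, Cct5 and Cct7 at or below 1.03.

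The subunits were more even in footprints than in RNA. Evenness was measured in each library as the coefficient of variation (CV, the standard deviation over the mean) of the 8 levels per kb of coding sequence. The CV was 26.0% to 32.2% in the 6 RNAseq libraries and 9.49% to 14.0% in the 6 ribosome profiling libraries, and the ranges did not overlap. The highest subunit exceeded the lowest by 2.21 to 2.79 times in RNA and by 1.32 to 1.56 times in footprints. No test was made of a value over the members, and the fragments of the assays were made in the different ways given above.

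An even complex would give each subunit 12.5% of the summed level. In RNA, Cct7 held 17.5% on average, Cct3 15.6%, Cct5 14.4% and Tcp1 14.4%, all above that share, and Cct2 held 12.6%. Cct8 held 9.26%, Cct6a 8.41% and Cct4 7.86%. In footprints the shares ran from 14.2% in Cct2 and 13.8% in Cct7 to 11.1% in Cct6a and 10.3% in Cct4. Cct8, well below the even share in RNA, held 13.3% in footprints.

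Not every step in these orders was larger than the spread between libraries. In RNA, Tcp1 lay above Cct2 and Cct2 above Cct8 in 6 of 6 libraries, while Cct5 and Tcp1, and the trio of Cct8, Cct6a and Cct4, changed places among libraries. In footprints, Cct3 lay above Cct5 and Cct5 above Cct6a in 6 of 6 libraries, and Cct6a above Cct4 in 5. Tcp1 ranged from rank 1 to rank 6.

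**Figure D4:**
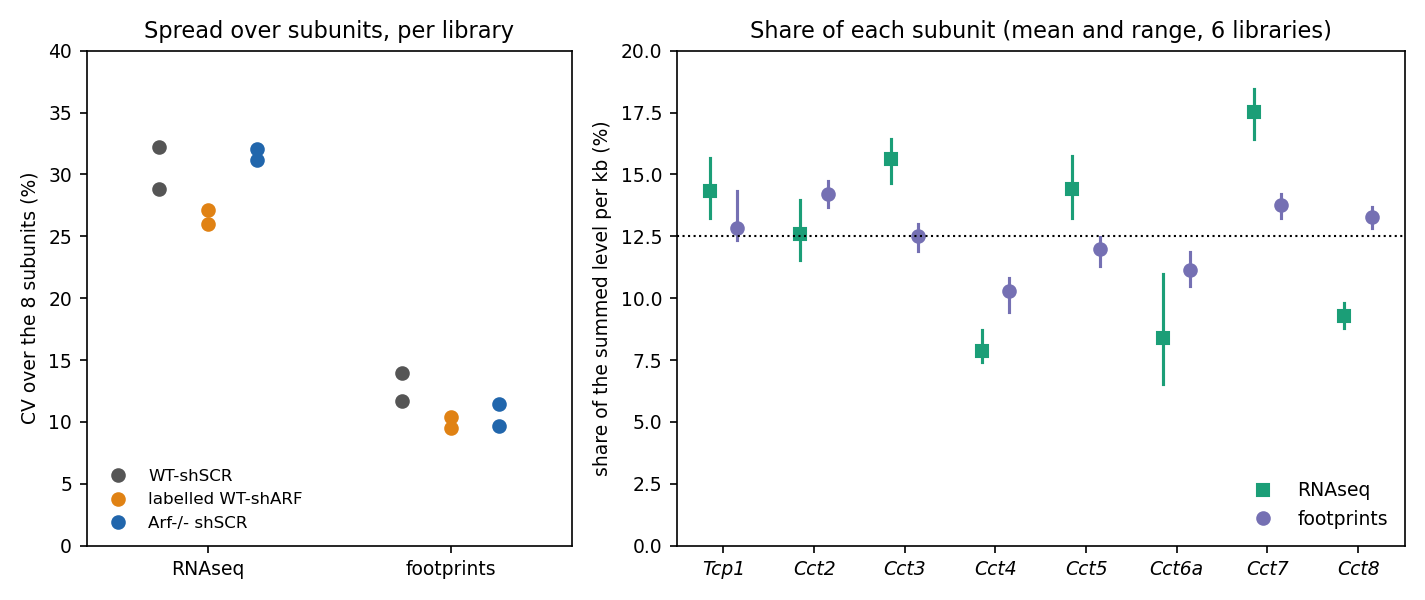
Left, CV over the 8 subunits (y axis, percent) in each library, by assay and group. Right, share of each subunit in the summed level per kb (y axis, percent), with the mean and range over 6 libraries, and the even share of 12.5% as a dotted line. The footprint points lie lower on the left and nearer to the line on the right.

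By group, the CV of RNA was 31.6% ± 0.627 (SD, n = 2) in Arf-/- shSCR, 30.5% ± 2.41 (SD, n = 2) in WT-shSCR and 26.6% ± 0.780 (SD, n = 2) in those labelled WT-shARF, where the RNA of Cct6a was nearer to that of the others. In footprints the CV was 10.6% ± 1.21, 12.8% ± 1.62 and 9.94% ± 0.627 (SD, n = 2) in the same order. Differences in CV between groups were not tested.

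Other complexes showed the same direction between assays. The 14 subunits of the 20S proteasome core, also needed in equal amounts, had a CV of 30.5% to 45.4% in RNA and 19.4% to 28.9% in footprints. The 6 prefoldin subunits, with few counts each, had a CV of 43.5% to 66.1% in RNA and 14.4% to 35.2% in footprints. Whether lower spread in footprints is particular to CCT was not tested.

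The counts leave out part of the reads of some subunits. Alignments to more than 1 place were left out of the gene counts. They made up 79.2% to 81.4% of all rows summed in the RNAseq files and 46.3% to 52.9% in the ribosome profiling files. Of all 28-base windows of the open reading frame, 19.96% in Cct3, 14.6% in Tcp1, 14.4% in Cct7 and 6.73% in Cct4 were found in transcripts of another gene, Cct3-ps1 and Tcp1-ps1 among them. In Cct2, Cct5, Cct6a and Cct8 the share was 0.892% or less. With unique windows as the length, the CV was 32.5% to 38.1% in RNA and 12.3% to 17.1% in footprints. Cct3, Tcp1 and Cct7, which had the most shared windows, were among the 4 highest in RNA, and the spread was wider in both assays with this length.

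The 8 genes moved together across the libraries to unequal degrees. On log2 CPM with each assay centred on its mean, the correlation of a member with the mean of the other 7 over the 12 libraries was highest in Cct3 (r = 0.92), Tcp1 (r = 0.91) and Cct8 (r = 0.90), and lowest in Cct6a (r = 0.55). These 12 points share 3 groups and their depths, so r is a description. Of 4000 other genes with at least 50 counts in every library, those most like the mean of the members were Tcea1 (r = 0.98), Serbp1, Mcm4, Nid2 and Nup153 (each r = 0.96).

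Prefoldin and the cofactors were called about as often as all genes. In Arf-/- shSCR against WT-shSCR footprints, 1 of 11 of these genes was called higher, against 9.57% of all genes. It was Vbp1, a prefoldin subunit, with a log2 change of 0.63 (edgeR adjusted p = 0.0117). Of the same 11 genes, 1 was called lower in footprints labelled WT-shARF, against 5.5% of all genes. It was Pdcl3, a phosducin-like cofactor, with a log2 change of -0.43 (edgeR adjusted p = 0.0185).

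The actins and tubulins, the main clients of CCT, rose in part. In knockout footprints 6 of 12 were called higher, against 9.57% of all genes, with Tuba1b at a log2 fold change of 0.97, Tubb6 at 0.40, Tubb5 at 0.39 and Actb at 0.17. In RNA of the same comparison 1 of 12 was called higher, against 3.94%, Tuba1b at 0.81. In the footprints of the libraries labelled WT-shARF 6 of 12 were called higher, against 5.63%, among them Tubb5 at 0.31, Tubb6 at 0.36, Tuba1b at 0.48 and Tubb4b at 0.28. In footprints of Arf-/- shSCR against those libraries 5 of 12 were called higher, against 3.93%, among them Actb at 0.17, Tuba1b at 0.48, Actg1 at 0.17 and Tuba1a at 0.39. In that comparison 1 of 12 was called lower, against 4.3% of all genes, Tubg1 (gamma tubulin) at -0.63.

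Of 11 cytosolic chaperone genes other than CCT, 8 were called higher in knockout footprints, against 9.57% of all genes, with a median log2 fold change of 0.32 over the 11. The lowest was Dnajb1, an HSP40, at -0.12 (edgeR adjusted p = 0.737). Among those called were the HSP90 genes Hsp90aa1 at 0.42 and Hsp90ab1 at 0.28, the HSP90 cochaperone Ptges3 at 0.57 and Stip1, which joins HSP70 to HSP90, at 0.43. In RNA 2 of 11 were called higher, against 3.94%, Hsp90aa1 at 0.72 and Ptges3 at 0.66. In the footprints of the libraries labelled WT-shARF 3 of 11 were called higher, against 5.63%, Hsp90ab1 at 0.32, Ptges3 at 0.51 and Stip1 at 0.33. Arf-/- shSCR exceeded those libraries in 3 of 11, against 3.93%, Hsp90aa1 at 0.25, Dnaja2 at 0.30 and Hsph1 at 0.38.

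Both genes of the mitochondrial chaperonin, Hspd1 and its lid Hspe1, rose in footprints. Their log2 fold changes were 0.53 and 0.69 in Arf-/- shSCR and 0.49 and 0.53 in the libraries labelled WT-shARF, each past the edgeR threshold. Of all genes, 9.57% and 5.63% were called higher in these footprint comparisons. Hspd1 RNA rose as well, by 0.51 and 0.52 on the log2 scale, and 1 of the 2 genes was called in each. Of all genes, 3.94% and 3.11% were called higher in RNA. Of the 20S proteasome 1 of 14 genes, Psma6, was called higher in knockout footprints, against 9.57% of all genes, with a median log2 fold change of 0.07 over the 14. In RNA of the libraries labelled WT-shARF 4 of its genes were called lower, against 4.17% of all genes, with log2 fold changes of -0.54 in Psmb3, -0.47 in Psmb6, -0.46 in Psmb7 and -0.41 in Psmb4.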

How the data were processed

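RNA and footprints were read from 12 libraries. Per the labels and the study's methods, reads were trimmed with cutadapt, UMI-tools and Bowtie2 were used, and TopHat (mm10) and HTSeq followed. The authors deposited raw counts per gene on coding sequences, with no normalization. Removal of duplicate molecules is not given in the sources used here. RNA fragments and footprints were both short.

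From the counts, edgeR 4.0.16 (R 4.3.3) computed TMM factors and quasi-likelihood F tests with filterByExpr, on the whole table, at an adjusted p threshold of 0.05. RNA and footprint fits held 4 libraries and TE fits 8. DESeq2 1.42.0 was an alternative. Levels are TMM-scaled CPM over the 6 libraries of an assay, divided by coding length from GENCODE M21. Figures and summaries used Python 3.11.15, pandas 2.3.3 and numpy 2.4.6. The fits were tested on simulated counts. Rows that name no gene, mostly non-unique alignments, were left out.

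The members and lists were chosen with earlier results of these data known. All 8 members were named, every called prefoldin or cofactor gene, up to 4 called genes of other lists by smallest p (more where a count was small), and the 5 genes most like the members. Replicates of a group differed by 3.87 to 7.63 chi-square units per gene, so none was a duplicate.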

Additional observations from a re-analysis of the deposited data

Results flagged for a closer look

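Cct6a RNA differed between Arf-/- shSCR and the libraries labelled WT-shARF by a log2 change of -0.59 (edgeR adjusted p = 0.0354), which means that its changes against WT-shSCR differed between the knockout and the labelled libraries. Both libraries of the knockout lay below both labelled libraries. Tcp1 footprints differed between the same groups by a log2 change of 0.27 (edgeR adjusted p = 0.036), with both knockout libraries above.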

How the results depend on the processing

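Between Arf-/- shSCR and WT-shSCR footprints, 8 members were called under DESeq2, every scaling, every filter and every block. Over all genes, these settings called 1305 to 2075, against 1988 in the main fit. Leaving out 1 library gave 0 to 8, and the lone sample left in a group was then assumed to vary like the others. In the libraries labelled WT-shARF against WT-shSCR, leaving out 1 library gave 0 to 1 members in RNA and 0 to 2 in footprints. For Arf-/- shSCR against those libraries it gave 0 to 1 lower in RNA, 0 to 3 higher in footprints and 0 to 1 higher in TE. DESeq2 called 1 member for TE (Cct6a) in Arf-/- shSCR against WT-shSCR, where the settings that kept every library called 22 to 123 genes in all. Against the libraries labelled WT-shARF it called 1 for TE and 0 in footprints, and no filter called 1 for TE. For TE in that comparison the same settings called 5 to 81 genes in all. Counts from fits with 1 library left out are given without a share over all genes.

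Within an assay, the deviations of same-numbered replicates of different groups correlated between -0.116 and 0.0482. RNAseq and ribosome profiling libraries with the same number were not compared, so whether they shared a culture was not tested. With the replicate block, 3 members were called in footprints labelled WT-shARF, 0 members were lower in RNA of Arf-/- shSCR against them, and 1 was called for TE there, as with the culture block (1). The crossed replicate block, added after seeing the data, called 1 member in RNA of Arf-/- shSCR against WT-shSCR, 1 in footprints labelled WT-shARF and 1 for TE in Arf-/- shSCR against them. Across the settings that kept every library, 467 to 1438 genes were called in RNA of Arf-/- shSCR against WT-shSCR. In footprints labelled WT-shARF 789 to 1376 were called. In RNA of Arf-/- shSCR against those libraries 188 to 832 were called.

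With unique windows as length, also added later, the CV in RNA was 36.8% in WT-shSCR, 33.2% in the libraries labelled WT-shARF and 37.7% in Arf-/- shSCR, and 16.8%, 13.8% and 14.5% in footprints. Leaving out 1 subunit gave 26.5% to 33.0%, 21.7% to 28.8% and 26.1% to 33.9% in RNA and 10.4% to 13.9%, 7.24% to 10.7% and 8.78% to 11.2% in footprints, in the same order. The CV stayed lower in footprints than in RNA in every setting run. The cause of these changes was not tested. Over all genes, the calls in footprints of Arf-/- shSCR against WT-shSCR went from 1988 to 1305 with DESeq2, and those in RNA against the libraries labelled WT-shARF from 273 to 617 with no filter. Median total counts were 2560631.5 in the RNAseq libraries and 3954735 in the ribosome profiling libraries. The part of depth in the fewer RNA calls was not tested. Lengths from RefSeq proteins were not run.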
